A study of Mus musculus with 2 samples.

Results

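The diacylglycerol kinases are a family of lipid kinase genes, and their probe sets were examined in activated mouse T cells. The members were chosen by name: Dgka, Dgkb, Dgkd, Dgke, Dgkg, Dgkh, Dgki, Dgkq and Dgkz, each taken through every probe set that the platform annotation assigns to its symbol alone. Of these 9 genes 7 were measured, by 15 probe sets, among 18193 named genes in all; Dgkb and Dgkg were not analysed here. The cells were 5cc7 T cell blasts of the mouse, meaning T cells enlarged by activation. 5cc7 cells carry a receptor for a moth cytochrome c peptide (MCC), and these had been exposed to that peptide in vitro 5 days before RNA was taken. Polyadenylated RNA labelled with biotin was hybridised to 2 Affymetrix mouse arrays, named set 1 and set 2, which form 1 group. There was no resting, untreated or second time point, the sources used here do not give the strain or age of the mice, and nothing says that the arrays came from separate cultures, so their spread may be technical.

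Diacylglycerol kinases add a phosphate to diacylglycerol and turn it into phosphatidic acid. In a T cell, the receptor activates phospholipase C gamma 1, which releases diacylglycerol at the membrane, and this lipid recruits protein kinase C theta and the Ras activator RasGRP1. By consuming diacylglycerol, the alpha and zeta isoforms limit that signal, and both are known for restraining T cell activation and for a part in T cell anergy. The isoforms share a catalytic domain and zinc-finger-like C1 domains and differ in the rest. Alpha, beta and gamma have calcium-binding EF hands, delta and eta have a pleckstrin homology domain, zeta and iota have ankyrin repeats, epsilon is the simplest, and theta (Dgkq) has an additional C1 domain.

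To show how start regions in the family differ, the 250 bases before annotated starts of Dgka and Dgkz are printed. Dgki, whose probe set had the lowest intensity among the members, is printed with them. Dgkd, the other isoform above background on the arrays (defined below), is not printed. The printed sequences come from the RefSeq promoter table of build GRCm38.p6. It held windows for all 9 genes: 4 for Dgka, 3 for Dgkh, 2 for Dgkz and 1 for each of the others. All of those printed lie on the minus strand and read 5′ to 3′ along the gene, and the number after a symbol is the window's order in the table. Capitals mark a GC box (GGGCGG), which binds Sp1-type factors, or a TATA box (TATAAA), on either strand. The Dgka 1, Dgka 2 and Dgka 4 windows are chr10:128745085-128745334, chr10:128744077-128744326 and chr10:128737613-128737862. The Dgkz windows are chr2:91963564-91963813 and chr2:91950349-91950598, and that of Dgki is chr6:37299977-37300226.
Dgka 1: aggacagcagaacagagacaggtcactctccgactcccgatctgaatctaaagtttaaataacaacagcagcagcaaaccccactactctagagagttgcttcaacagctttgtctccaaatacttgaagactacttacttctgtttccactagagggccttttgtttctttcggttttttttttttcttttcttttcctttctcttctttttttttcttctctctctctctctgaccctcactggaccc
Dgka 2: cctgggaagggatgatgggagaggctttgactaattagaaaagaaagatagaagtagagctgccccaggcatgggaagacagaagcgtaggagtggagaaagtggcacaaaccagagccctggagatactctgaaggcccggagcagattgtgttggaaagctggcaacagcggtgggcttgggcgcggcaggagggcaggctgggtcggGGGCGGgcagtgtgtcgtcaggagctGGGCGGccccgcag
Dgka 4: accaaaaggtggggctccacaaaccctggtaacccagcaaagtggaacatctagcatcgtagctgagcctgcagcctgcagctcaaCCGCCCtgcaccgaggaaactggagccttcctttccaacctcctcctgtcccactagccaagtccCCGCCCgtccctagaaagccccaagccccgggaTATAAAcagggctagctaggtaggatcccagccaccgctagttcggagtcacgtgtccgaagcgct
Dgkz 1: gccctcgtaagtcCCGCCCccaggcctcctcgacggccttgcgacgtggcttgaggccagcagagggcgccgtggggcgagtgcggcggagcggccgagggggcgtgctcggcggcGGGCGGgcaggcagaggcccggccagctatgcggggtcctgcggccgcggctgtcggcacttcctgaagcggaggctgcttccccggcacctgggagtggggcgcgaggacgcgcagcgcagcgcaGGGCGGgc
Dgkz 2: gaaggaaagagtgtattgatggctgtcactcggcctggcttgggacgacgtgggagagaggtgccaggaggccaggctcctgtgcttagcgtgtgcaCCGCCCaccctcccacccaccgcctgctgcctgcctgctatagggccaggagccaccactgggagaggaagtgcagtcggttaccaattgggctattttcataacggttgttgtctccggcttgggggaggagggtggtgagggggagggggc
Dgki: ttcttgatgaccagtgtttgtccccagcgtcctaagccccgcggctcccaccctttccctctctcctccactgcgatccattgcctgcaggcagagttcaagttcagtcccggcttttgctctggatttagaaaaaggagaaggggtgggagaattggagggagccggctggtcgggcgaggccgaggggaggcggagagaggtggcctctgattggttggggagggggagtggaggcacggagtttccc

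The Dgka starts had unlike base composition. G+C content was 41.2% for Dgka 1, which is the outermost annotated start, and 60.0%, 72.4% and 59.2% for Dgka 2, Dgka 3 and Dgka 4. The median over 32851 windows of the same length was 52.4%. Dgka 1 held no GC box and 3 CG dinucleotides, against 2, 3 and 2 GC boxes in the other Dgka windows. The Dgka 2 and Dgka 3 windows overlap and share a pair of these boxes, which is why Dgka 3 is not printed. The TATA box of Dgka 4 spanned bases -66 to -61, counted back from -1 at the base before the start. Dgkz 1 was 77.6% G+C with 33 CG dinucleotides and 3 GC boxes, and Dgkz 2 was 62.4% with 9 CG dinucleotides and 1 GC box. These Dgkz starts lie 12880 and 26095 bases inside the outer end of the gene, so neither is at that end. The Dgki window was 60.8% G+C and held none of the motifs searched. The Dgkd window, not printed, was 67.2% G+C with 21 CG dinucleotides and 7 GC boxes. Of the other isoforms not above background, Dgke held 3 GC boxes, Dgkh 2 held 3 and Dgkq held 1, while Dgkh 1 and Dgkh 3 held none. Dgkh 2 is at the outer end of its gene, and Dgkh 1 and Dgkh 3 start 88278 and 103439 bases inside it. GC boxes thus occurred in genes above background and in genes not above it.

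Across the family, 10 of 15 windows held a GC box and 1 held a TATA box, against 32.7% and 12.4% of all windows. The 15 windows belong to 9 genes, and windows of 1 gene can overlap. All windows were not matched to these 15 in G+C content. A GC box is made of G and C alone, so its share of all windows is no like measure. A pair of elements bound by factors known to act on these genes was also searched, on both strands. The FoxO element (GTAAACA) had no match in the 15 windows and occurred in 3.17% of all windows. The Egr element (GCGNGGGCG) matched in 1, that of Dgkg, at bases -50 to -42, where it overlaps the GC box of that window, and occurred in 4.70% of all windows. These matches describe letters in a short window. The arrays do not show which start of a gene was used.

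**Figure D1:**
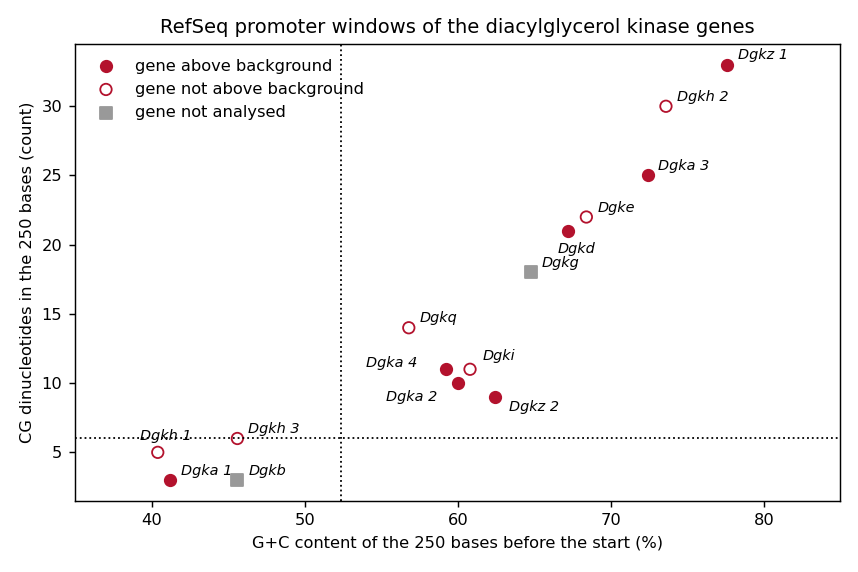
Each point is the 250 bases before an annotated start of a diacylglycerol kinase gene, by G+C content in percent (x axis) and number of CG dinucleotides (y axis); filled circles are genes above background on the arrays, open circles genes not above it, squares genes not analysed, and dotted lines the medians of all windows (52.4% and 6). Windows of genes above background run from Dgka 1 at 41.2% to Dgkz 1 at 77.6%, and genes not above background cover nearly the same range.

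A bound was needed to say which isoforms could be told from unspecific signal. It was the 95th percentile of intensity over 60 probe sets for 41 genes of liver, eye, pancreas and kidney, which came to 101 for set 1 and 112 for set 2. Any probe set above the bound on both arrays is called above background, and a gene with at least 1 such probe set likewise. Probes differ in how strongly they bind their target, so the values of different probe sets are not set against each other as abundances. In RNA from a whole culture, fewer cells with a transcript and less of it per cell cannot be told apart.

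Of the 7 measured isoforms, 3 were above background, Dgka, Dgkz and Dgkd, and the other 4, Dgke, Dgkh, Dgki and Dgkq, were not. That is 42.9% of the isoforms, beside 35.1% of all named genes. By probe set it was 4 of 15 (26.7%), beside 25.5% of all probe sets, which include those without a gene symbol or with several. Both shares of the family lie near those of the whole array. The count rests on the bound: leaving Kap and Prss2, the only off-tissue genes above it, out of the list lowered it to 52.1 and 55.1 and brought Dgke and Dgkh above it, for 5 of 7 isoforms beside 47.8% of all genes. More probe sets give a gene more chances: the share above background was 21.8% for genes with 1 probe set, 40.6% with 2, 51.8% with 3 and 59.3% with 4. Dgka, Dgki and Dgkq had 1 probe set each, Dgkz 2, Dgke and Dgkh 3, and Dgkd 4.

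Dgka encodes the alpha isoform, a calcium-responsive kinase abundant in T lymphocytes. Its probe set, 1418578_at, read 2681.1 on set 1 and 2474 on set 2, or 2578 ± 146 (mean ± SD, n = 2, as for all such values here). Both arrays were far above their bounds, by 26.5 and 22.2 times. On set 1, 99.2% of all probe sets had an intensity at or below that of Dgka.

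Dgkz encodes the zeta isoform, whose carboxy-terminal tail binds PDZ domains such as that of sorting nexin 27. The probe set 1452169_a_at read 3146.8 and 3231.6, or 3189 ± 60.0, which was 31.2 and 29.0 times the bound. The probe set 1426738_at read 446.7 and 411.4, or 429 ± 24.96, which was 4.42 and 3.69 times the bound. Both Dgkz probe sets were above background on both arrays, and both are annotated to the same cDNA accession. The annotation does not say which part of the transcript each probe set covers.

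Dgkd encodes the delta isoform, known for acting on the epidermal growth factor receptor pathway and on glucose handling in muscle. Its 4 probe sets gave unlike results. The probe set 1433564_at read 463.1 and 413.8, or 438 ± 34.9, and was the only Dgkd probe set above background on both arrays, at 4.59 and 3.71 times the bound. Of the other Dgkd probe sets, 1454655_at exceeded the bound on set 1 alone, reading 109.7 there and 62.6 on set 2. The probe set 1439873_at read 58.6 and 90.8, below the bound on both arrays. The last, 1443781_at, read 5.5 and 5.6. The call for Dgkd therefore rests on 1 of 4 probe sets, and with the median over the probe sets of a gene in place of the brightest, Dgkd was not above background.

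Dgkh encodes the eta isoform, a relative of delta. Its brightest probe set, 1457213_a_at, read 100.2 and 93.2, or 96.7 ± 4.95. On set 1 this was 0.992 of the bound, so Dgkh lay just under it, and it was above background when the 90th percentile of the off-tissue probe sets set the bound. The probe set 1459906_at read 46.1 and 42, and 1438310_at read 20.5 and 35.3. Among the isoforms not above background, Dgkh came closest to the bound.

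Dgke encodes the epsilon isoform, which prefers diacylglycerol with an arachidonate chain and serves the recycling of phosphatidylinositol. Its 3 probe sets lay in a narrow band under the bound. They read 71.6 and 62 for 1438078_at, 55.8 and 52.9 for 1423000_a_at, and 64.7 and 43.8 for 1436547_at. These readings ran from 0.393 to 0.709 of the bound of their array. An antisense gene at the start of Dgke, Dgkeos, which is no member and was chosen after its values were seen, was not above background with either of its 2 probe sets, at 36.8 ± 1.91 and 2.45 ± 0.495.

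Dgkq encodes the theta isoform, and its probe set 1437000_at read 33 and 39.1, or 36.05 ± 4.31, close to the array medians of 36.4 and 37.9. Dgki encodes the iota isoform, the nearest relative of zeta and best known from the nervous system. Its probe set 1439986_at read 3.9 and 3.5, or 3.70 ± 0.283, and only 11.7% and 10.3% of all probe sets were at or below it. The kappa isoform gene Dgkk, also no member and chosen after its value was seen, was not above background at 45.8 and 38.1. A probe set under the bound does not show that its transcript was absent.

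**Figure D2:**
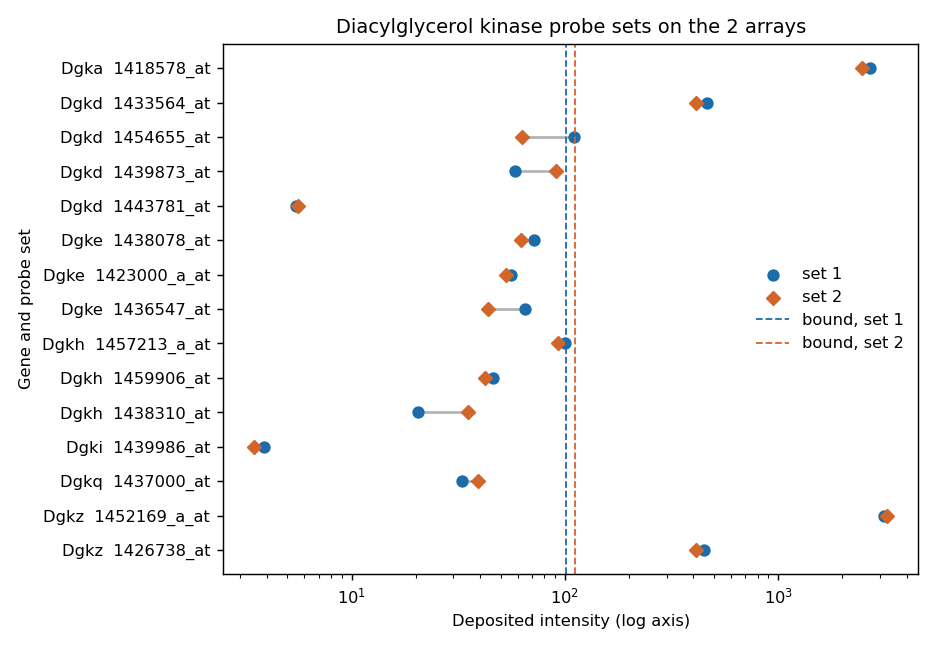
The x axis is the deposited intensity on a log axis and each row is 1 probe set of a diacylglycerol kinase gene; circles are set 1, diamonds are set 2, and dashed lines are the background bounds of the arrays (101 and 112). The Dgka probe set, both Dgkz probe sets and 1 Dgkd probe set lie to the right of both lines, and the other 11 lie left of at least 1 of them.

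The 2 arrays differed little for the isoforms above background. Each difference is the log2 intensity on set 2 less that on set 1, centred on the median of 0.02 over all probe sets above background, with values under 1 set to 1. They were -0.14 for Dgka, 0.02 for the Dgkz probe set 1452169_a_at, -0.14 for the Dgkz probe set 1426738_at and -0.18 for the Dgkd probe set 1433564_at. Their median was -0.14, and the SD over all 11487 probe sets above background was 0.20. The SD was smaller among bright probe sets. At a mean of 2048 or more, where Dgka and 1452169_a_at lie, it was 0.12, and 31.0% of probe sets there differed at least as much as Dgka. None of the 4 passed 2-fold, where 0.0871% of all probe sets above background did (10 of 11487, all higher on set 2). None passed 1.5-fold either. In the intensity ranges where these probe sets lie, 1.12% (256 to 512) and 0% (2048 or more) of all probe sets did. With 1 group no test was possible, and having 2 arrays limits the precision.

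Of the 11 probe sets not above background, some differed more between the arrays than those above it, and others differed about as little. The smaller differences were 0.006 for Dgkd 1443781_at, -0.10 and -0.23 for Dgke 1423000_a_at and 1438078_at, and -0.12 and -0.15 for Dgkh 1457213_a_at and 1459906_at. Dgki and Dgkq differed by -0.18 and 0.22. Over all 15 probe sets, 10 were lower on set 2 and 5 higher, with a median difference of -0.14 beside 0.01 over all probe sets. None passed 2-fold, where 16.7% of all probe sets did without a background filter. That share depends on intensity: it was 33.7% under 32, 5.25% from 32 to 64 and 0.867% from 64 to 128. The median intensity was 66.8 for the members and 36.85 for all probe sets, so the 16.7% is no like measure. The widest difference was in Dgkd, and another of its probe sets differed in the opposite direction. The Dgkd probe set 1454655_at fell by 0.83 on the log2 scale from set 1 to set 2 while 1439873_at of the same gene was higher by 0.61. Among the 5998 probe sets with a mean of 64 to 128, the SD was 0.33, and 2.15% and 6.77% of them differed at least as much. The Dgkh probe set 1438310_at was higher on set 2 by 0.76, but under an intensity of 32 the SD was 1.2 and 43.3% of probe sets differed as much. The Dgke probe set 1436547_at differed by -0.58, where the SD between 32 and 64 was 0.52.

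**Figure D3:**
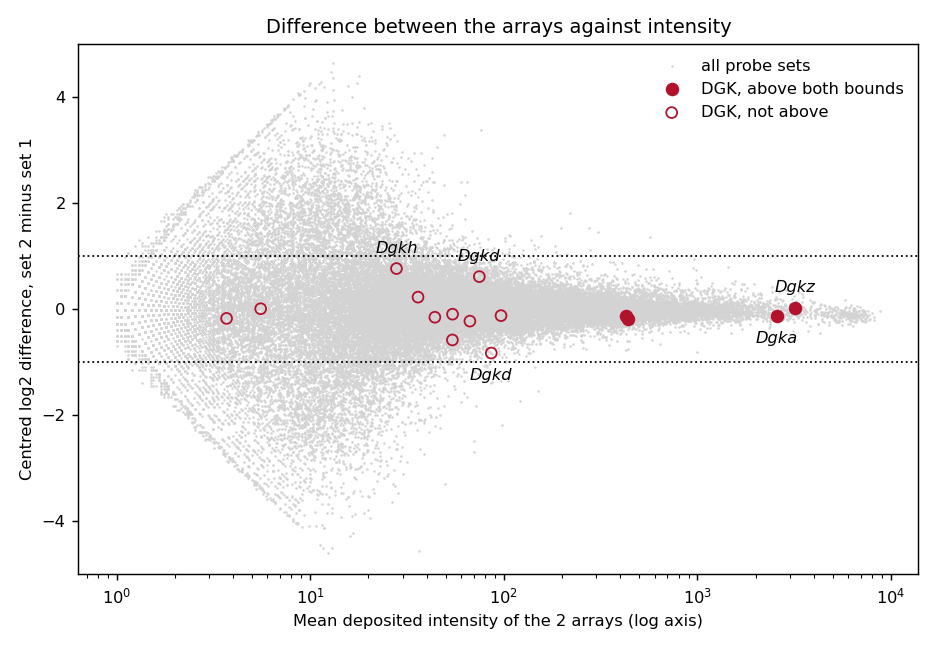
The x axis is the mean deposited intensity of the 2 arrays (log axis) and the y axis the centred log2 difference, set 2 minus set 1; grey points are all probe sets with a mean of at least 1, filled circles the 4 diacylglycerol kinase probe sets above both bounds, open circles the other 11, and dotted lines mark 2-fold. The filled circles lie between -0.18 and 0.02 and no member crosses the 2-fold lines, while the grey points fan out at low intensity.

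The genes around the kinases in the lipid pathway were taken from 5 lists. The share of all named genes given beside each count is not matched for the number of probe sets per gene. That share was 21.8% for genes with 1 probe set and 51.8% for genes with 3. The lists of diacylglycerol targets, phosphatidic acid use and regulators had 48 probe sets for 19 genes, 42 for 16 and 29 for 11. Enzymes that release diacylglycerol or act beside them, the phospholipases C and D, were above background in 3 of 16 cases (18.8%, beside 35.1% of all named genes). The count was 5 with the median of all probe sets as the bound (55.4% of all named genes) and 5 with Kap and Prss2 left out of the off-tissue list (47.8%). The 3 were Plcg1, the phospholipase C coupled to the T cell receptor, at 750 ± 38.2, Plcg2, its counterpart in B cells, at 165 ± 15.7, and Plcl2, a relative regarded as catalytically inactive, at 284 ± 57.2. The phospholipase C beta genes Plcb1, Plcb2 and Plcb3 were not above background. Plcb2 differed between the arrays, reading 76.8 and 21.9.

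Proteins that bind diacylglycerol through C1 domains compete with the kinases for it. In a list of such genes and their relatives, 10 of 19 were above background (52.6%, beside 35.1% of all named genes). The 10 include Unc13d at 192 ± 29.2, whose product lacks the C1 domain of its relatives. Protein kinase C theta (Prkcq) read 1476.3 and 1394.4, or 1435 ± 57.9, and protein kinase C eta (Prkch) was at 1047 ± 53.2. Rasgrp1, whose product activates Ras at the membrane, read 1041.6 and 1052.4, or 1047 ± 7.64, and all 4 of its probe sets were above background. Prkd2, a protein kinase D gene, was at 1096 ± 73.2 with 3 of 5 probe sets above background. The chimaerin genes Chn1 and Chn2 and the protein kinase C epsilon gene Prkce were not above background, at 46.2 ± 9.69, 17.8 ± 3.68 and 99.3 ± 23.3. Prkce exceeded the bound on set 2 alone.

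Other enzymes that make or use diacylglycerol were above background in 7 of 18 cases (38.9%, near the 35.1% of all named genes). With the median over the probe sets of a gene the count was 4, beside 26.7% of all named genes. The 7 included Cept1, which joins diacylglycerol to choline or ethanolamine head groups, at 584 ± 42.6, and Lpin1, a phosphatase that makes diacylglycerol from phosphatidic acid, the reverse of the kinase reaction, at 408 ± 18.6. The sphingomyelin synthase gene Sgms1, whose product releases diacylglycerol, was at 322 ± 4.88, and the triglyceride lipase gene Pnpla2 at 210 ± 12.1. The diacylglycerol lipase genes Dagla and Daglb were not above background, at 15.3 ± 0.141 and 17.5 ± 19.2, nor was the choline phosphotransferase gene Chpt1 at 69.9 ± 1.70.

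The product of the kinases, phosphatidic acid, re-enters phosphatidylinositol synthesis, and 9 of 16 genes in a list for the supply and use of phosphatidic acid were above background (56.2%, beside 35.1% of all named genes). Cds2, which activates phosphatidic acid with a cytidine nucleotide, was at 491 ± 51.4 and Cdipt, which makes phosphatidylinositol from it, at 840 ± 24.8. The lipid transfer protein genes Pitpna and Pitpnb were at 819 ± 28.4 and 378 ± 25.9. Cds1 was not above background at 8.60 ± 5.94. The acyltransferase genes Agpat1 and Agpat2, which supply phosphatidic acid by another route, each exceeded the bound on a single array, at 107 ± 18.2 and 105 ± 14.0. With the 90th percentile as the bound, the count for this list rose from 9 to 14, while the share of all named genes rose from 35.1% to 44.5%.

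Of the genes listed as regulators or partners of diacylglycerol kinases, 8 of 11 were above background (72.7%, beside 35.1% of all named genes). With the 99th percentile as the bound, 5 of 11 were, beside 30.9% of all named genes. Foxo1, a factor known to raise Dgka transcription, was at 501 ± 33.9 with 3 of 4 probe sets above background. Rac1, a GTPase that acts with the alpha and zeta isoforms on the cytoskeleton, was at 2282 ± 153, Nras, a target of RasGRP1, at 388 ± 33.7, and the retinoblastoma gene Rb1, whose protein binds the zeta isoform, at 384 ± 54.0. The kinase gene Src and the nuclear receptor genes Ppara and Pparg were not above background, at 14.2 ± 4.60, 23.8 ± 1.48 and 9.80 ± 5.09. Outside the rule for named genes and chosen after their values were seen, Egr2 and Egr3, factors tied to T cell anergy and to Dgka and Dgkz expression, were at 132 ± 2.90 and 288 ± 43.8, each with 1 of 2 probe sets above background. Egr2, which read 134.2 and 130.1, was not above the bound set by the 99th percentile, and its level was close to those of the off-tissue genes Kap (128.5 ± 1.56) and Prss2 (138 ± 18.4).

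The labelled cell type was checked in the same way. All 8 measured T cell identity genes were above background, beside 35.1% of all named genes. They ran from 906 ± 71.9 for Zap70 to 4671 ± 299 for Cd3d, with Cd4 at 1119 ± 95.2. Of the genes of other cells, 3 of 7 B cell genes were above background (42.9%, near the 35.1% of all named genes), with levels from 37.6 to 377. The counts were 0 of 10 for macrophage and dendritic cell genes (2.40 to 102) and 0 of 5 for NK cell genes (0.8 to 20.2). For CD8 T cell genes it was 1 of 4 (25%, levels 23.4 to 213), Cd8b1, which read 190.5 and 235.3. The macrophage gene Csf1r exceeded the bound on set 2 alone, at 146.7. The B cell genes above background were Ms4a1, Cd22 and Cd79b, and Ebf1, Cd79a, Blk and Pax5 were not. Cd79a exceeded the bound on set 1 alone, at 118.4. The part of other cells in the diacylglycerol kinase values was not tested.

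**Figure D4:**
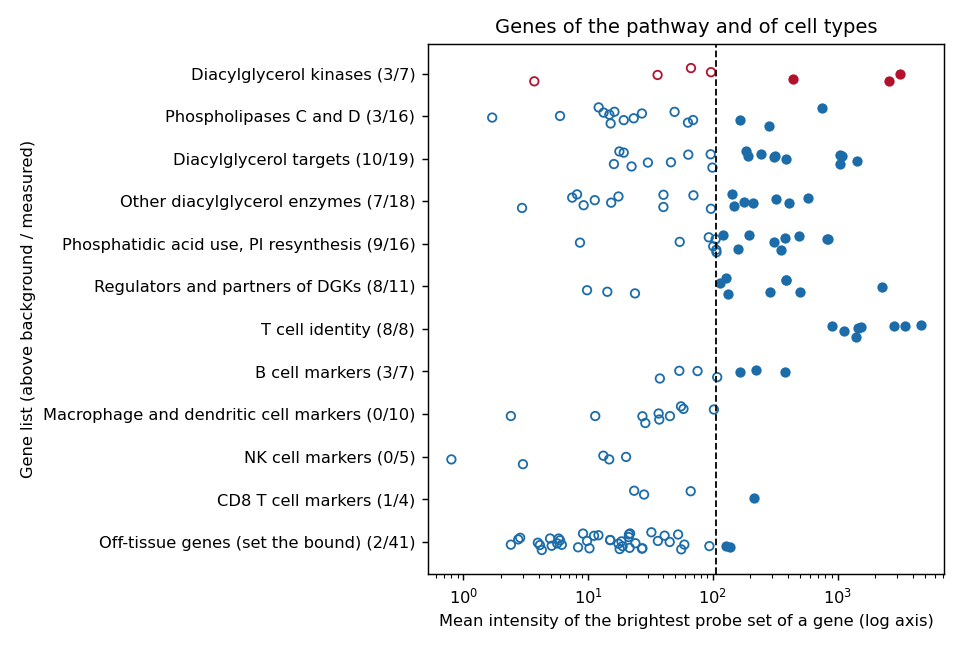
Each point is 1 gene at the mean intensity of its brightest probe set (x axis, log), in rows by gene list, with the number above background and the number measured beside each list; filled points are above background, open points are not, red marks the diacylglycerol kinases, and the dashed line is the mean of both bounds, while calls use each array's own bound. Dgka, Dgkz and Dgkd are the filled red points, at 2578, 3189 and 438, and the other 4 isoforms lie left of the line.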

How the data were processed

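The deposited values are 1 intensity per probe set and array, on a linear scale read from the values (0 to 8860.2); how the authors corrected background, summarised probes and scaled arrays is not given in the sources used here. Of 45101 probe sets, 64 manufacturer's controls were left out. Of the rest, 34945 had 1 gene symbol in the platform annotation, 932 several and 9160 none here. Symbols were checked by Entrez identifier against RefSeq genes of GRCm38.p6, which matched 34741 and changed 0, and matched all 7 measured members.

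The members and gene lists were chosen with earlier results of these data known. The off-tissue list that sets the bound was newly compiled. Named genes are all member probe sets and, from each pathway list, up to 4 genes with the highest intensity above background and up to 3 not above it in alphabetical order; the brightest probe set gives a gene's level. List genes without a probe set of 1 symbol were not analysed here. Alternatives changed the bound, the arrays, the probe sets, the gene rule, the scaling, the centring and the fold limit. Calculations used Python 3.11.15, numpy 2.4.6 and pandas 2.3.3, tested on simulated data. Promoter sequences are from RefSeq.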

Additional observations from a re-analysis of the deposited data

How the results depend on the processing

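Dgka and Dgkz were above background under all 8 alternatives tried. The count of isoforms was 3 with either array left out (36.2% of all genes without set 1 and 37.3% without set 2). The count for the family depended on the bound. It was 5 isoforms and 11 probe sets with the median of all probe sets as the bound (55.4% of all genes), and 5 isoforms and 8 probe sets (47.8%) when the genes Kap and Prss2, the only off-tissue genes above the bound, were left out of its list, an alternative chosen after seeing the data. The isoforms added in both cases were Dgke and Dgkh. It was 4 with the 90th percentile (Dgkh added; 44.5% of all genes) and 4 without probe sets of suffix _x_at, _s_at or _a_at, which also lowers the bound to 54.4 and 57.0 (Dgke added; 43.0%), and 2 (Dgka and Dgkz; 26.7%) with the median over all probe sets of a gene. Beside the 35.1% of the main bound, the share of all genes moved in the same direction as the isoform count in each of these cases. Leaving out probe sets by suffix also removed the brightest probe sets of Dgkh (1457213_a_at) and Dgkz (1452169_a_at). Dgkh was therefore judged there by its dimmer probe sets, and Dgkz by 1426738_at alone. For the phospholipases the count moved from 3 to 5 both with the median bound (55.4% of all genes) and without Kap and Prss2 (47.8%). For phosphatidic acid use it moved from 9 to 14 with the 90th percentile (44.5%), to 15 with the median bound (55.4%) and to 14 without Kap and Prss2 (47.8%). For regulators and partners it moved from 8 to 5 with the 99th percentile (30.9%). For the other diacylglycerol enzymes it moved from 7 to 4 with the median over probe sets (26.7%). The other 49 alternative counts stayed within 1.5 times, or at 0 for the counts past a fold limit. Leaving out 1 array gave 4 to 5 member probe sets, 3 phospholipase genes, 11 diacylglycerol targets, 7 other enzymes, 11 genes of phosphatidic acid use and 8 regulators. Of all genes, 36.2% were above background without set 1 and 37.3% without set 2. The number of member probe sets past the fold limit stayed 0 under all 5 alternatives, of which 1 lowered the limit to 1.5-fold. Another added 16 to each value before the logarithm, which shrinks differences, so a rise from 0 was hardly possible there. Levels of the isoforms moved by less than 1 SD under quantile normalization. No paired analysis was possible because there is 1 group. Signal near background limits the calls for Dgkh and Dgke.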
